A study of Mus musculus with 6 samples.

Results

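Histone genes of the linker family (H1) and of the core families (H2A, H2B, H3 and H4) were examined in sorted CD4+CD8+ double-positive (DP) thymocytes with and without a T-cell deletion of Paxbp1. Members were chosen by gene symbol alone, with no measured value in the rule, although earlier results of these data were known. Of the 22322 genes in the deposited table, 102 carried such a symbol. The families held 11 H1, 44 H2A, 20 H2B, 14 H3 and 13 H4 genes. By symbol, 64 members were classed as replication-dependent, 8 as variant genes expressed throughout the cell cycle, and 30 as germ-line genes of testis or oocyte. Every symbol outside the variant and germ-line lists fell into the replication-dependent class, with no check of how the gene is expressed.

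The study compared 3 control libraries with 3 libraries of Paxbp1 conditional knockout (cKO) DP thymocytes, to ask which transcripts change in cells that are prone to apoptosis without Paxbp1. Controls were Paxbp1 fl/fl littermates without Cre. The cKO mice were Paxbp1 fl/fl and carried the Lck-cre transgene, which expresses Cre in T-lineage cells, so both groups carried the floxed alleles and neither was treated. The mice were on the C57BL/6 background and between 4 and 7 weeks old. The sources do not say whether the libraries of a group came from separate mice, so the p-values measure the spread between these libraries, which may be technical.

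Nucleosomes wrap DNA around an octamer of H2A, H2B, H3 and H4, and linker histone H1 binds where DNA enters and leaves. Replication-dependent histone genes lie in clusters, are transcribed in S phase under NPAT, and give mRNAs that end in a conserved stem-loop bound by SLBP in place of a poly(A) tail. Variant genes such as H1f0, H3f3a, H3f3b and H2az1 lie alone, and their polyadenylated mRNAs supply chromatin outside S phase, while H2ax is known to give mRNAs of both kinds. DP thymocytes arise from a burst of division and then leave the cell cycle while they rearrange the T-cell receptor alpha locus.

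Depth ranged from 18963775 to 26252248 counts per library. Levels are given in CPM, counts scaled to a common library size, and a single count was worth 0.0388 to 0.0521 CPM. Control 1 stood furthest from its group: the chi-square per degree of freedom between libraries was 57.0 and 68.3 for its pairs and 19.8 for controls 2 and 3. In the other group the pairs of cKO 1 gave 36.3 and 37.9, and cKO 2 and 3 gave 23.9. Paxbp1 itself was at 40.1, 16.3 and 15.5 CPM in the controls and at 38.8, 47.1 and 49.6 CPM in the libraries labelled cKO. The floxed part is exon 8 alone, so a count over the whole gene does not check the deletion, and every direction below rests on the labels. All 10 DP markers were detected in both groups, and none had a positive log2 fold change (median -0.45). Of these, 4 were called lower in the cKO-labelled libraries, namely Cd8b1, Rag1, Cd3e and Trac. Their log2 fold changes lay between -0.85 and -0.58, with edgeR adjusted p between 0.00923 and 0.0383. Of 20 replication genes, 12 were called higher and 0 lower, with a summed level of 4523 to 6773 CPM in controls against 8551 to 10934 CPM. For comparison with each marker list, 4.47% of all tested genes were called higher and 5.89% lower. The 12 mitosis genes summed to 2570 to 4269 and 3030 to 3993 CPM, with a median log2 fold change of 0.08. Macrophage markers summed to 6.79 to 25.4 CPM in controls and 45.3 to 65.9 CPM in the cKO-labelled libraries (4 of 8 tested called higher, Mertk at 0 in every library), and erythroid markers to 26.7 to 141 and 0.68 to 48.4 CPM (median log2 fold change of -1.40 over 5 tested). Of markers of double-negative and immature single-positive thymocytes, 3 of 6 were called higher (Il2ra, Dtx1 and Hes1), and the log2 fold changes of Kit, Ptcra and Cd44 were -0.93, -0.31 and -0.01 with adjusted p of 0.335 or more. The part of these markers in the histone results was not tested.

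Because the stem-loop and the poly(A) signal set how a histone mRNA ends, both were read from the annotated transcripts (GENCODE M21, GRCm38), to which all 102 members were matched by Ensembl identifier. A stem-loop was taken as 16 bases after the stop codon with a perfect 6-base stem (5′ arm beginning GG and ending CT) and a 4-base loop. The loop had to read TNTN, where N is A, C or T. Such a stem-loop was found in 48 members, 45 of them among the genes tested below, and in 1 of 21660 other protein-coding genes (0.005%). Members the results turn on are shown 5′ to 3′, with the stem arms in capitals and up to 5 bases on either side.
H2ax: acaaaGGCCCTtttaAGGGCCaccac
H2bu2: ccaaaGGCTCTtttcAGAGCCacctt
H1f2: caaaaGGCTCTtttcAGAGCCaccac
H1f4: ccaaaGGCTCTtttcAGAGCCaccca
H2ac18: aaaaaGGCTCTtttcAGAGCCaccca
H3c3: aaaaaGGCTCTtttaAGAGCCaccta
H2bc3: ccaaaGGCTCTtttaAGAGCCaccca
H4c6: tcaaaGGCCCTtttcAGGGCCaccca
The 16 bases seen in H2bu2 and H1f2 were the commonest form and were shared by 27 members of families H1, H2A, H2B and H3. The form of H4c6 was found in 7 members, all of family H4. H2ax carried a form that no other member had. In H2ac18, H3c3, H2bc3 and H4c6 the annotated transcript stopped 35, 74, 23 and 33 bases after the hairpin, whereas in H2bu2, H2ax, H1f2 and H1f4 it ran on for 169, 822, 840 and 1153 bases.

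A poly(A) hexamer (AATAAA or ATTAAA) lay in the last 50 bases of the annotated transcript in 37 members and in 72.7% of other protein-coding genes. The 5 members whose level passed the test below all had it, and the hexamer is shown in capitals with 10 bases on either side.
H1f0: aaaactttaaAATAAAactggaaagg
H2ax: ggctaattttATTAAAggatcgtttg
H2bc21: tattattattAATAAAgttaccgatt
H1f10: cctggggcgcAATAAAcggttccaac
H2bu2: taatggtattAATAAAtttggttcaa
H2ax and H2bu2 therefore held both signals in their annotated transcripts, and H1f0, H1f10 and H2bc21 held the hexamer with no stem-loop of these letters. Some members, H1f5 among them, have annotated transcripts that end at the stop codon, and neither signal could be found past it.

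After the filter on low counts, 68 of the 102 members were tested in the edgeR fit across all 11488 genes. Of the 34 that did not pass, 23 had no count in any library and the other 11 had at most 45 counts over the 6 libraries. All 30 germ-line members were among the 34, and their summed level was 0.308 to 0.882 CPM in controls and 0.185 to 0.456 CPM in cKO-labelled libraries. The remaining 4 were H2ac10, H2ac21, H2ac23 and H4c12. All 8 variant genes and 60 replication-dependent genes were tested.

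In the cKO-labelled libraries 5 histone genes were lower and 0 were higher at an adjusted p below 0.05. The 5 were H1f0, H2ax, H2bc21, H1f10 and H2bu2, all past a fold of 2. They made up 7.35% of the tested members, against 5.89% of all tested genes called lower, and 4.47% of all tested genes were called higher. Adjusted p are those of edgeR unless another tool is named. In the same fit 2 members were higher at an unadjusted p below 0.05 (H3c3 and H2bc3) and 12 were lower, and no alternative tool or library set called a member higher. The median log2 fold change over the 68 was -0.007, with 34 positive and 34 negative values, against -0.0017 over all genes tested. Groups did not overlap for 9 members that were higher (13.2%, against 15.7% of all genes) and for 8 that were lower (11.8%, against 17.3%). As these are levels in bulk RNA, fewer cells that express a gene and less RNA per cell cannot be told apart.

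**Figure D1:**
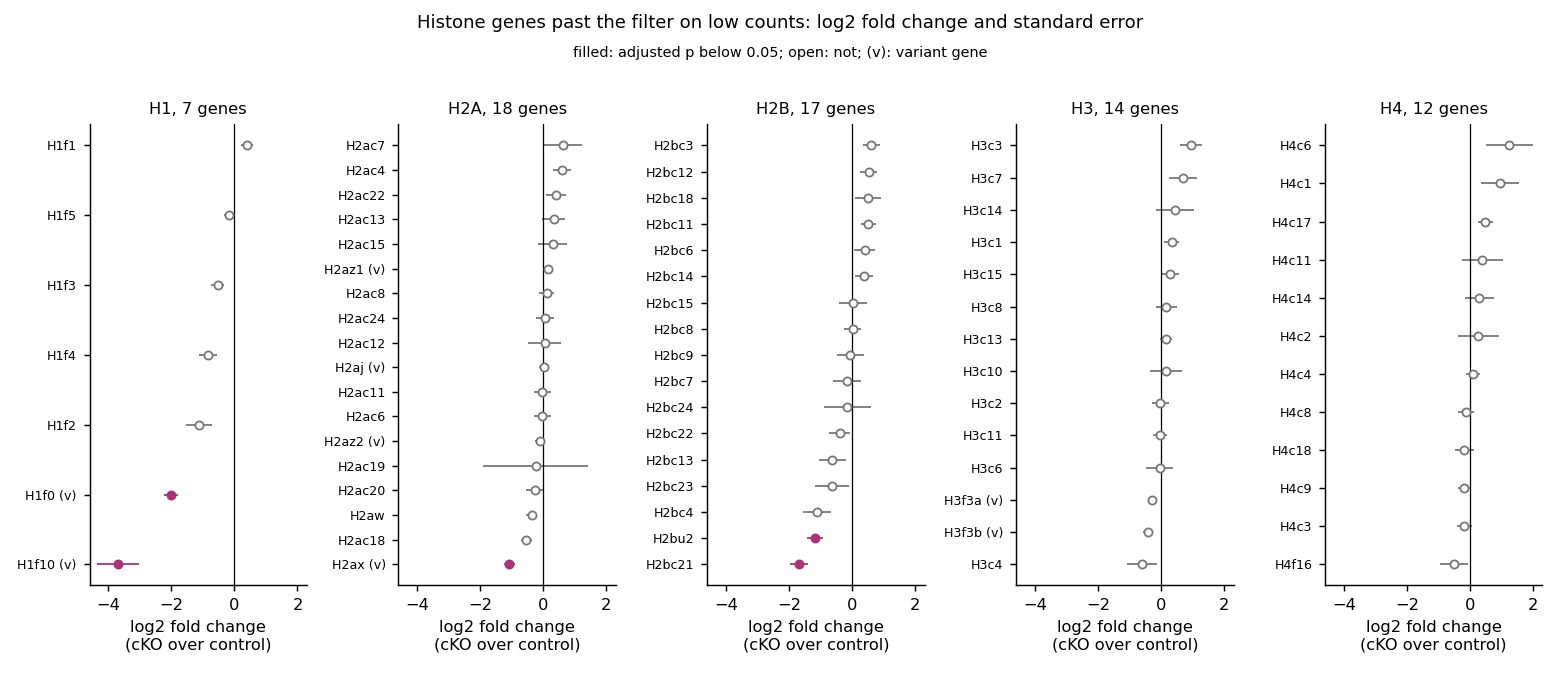
Log2 fold change (x axis, cKO-labelled over control, with standard error) of each of the 68 tested histone genes (y axis), in panels by family. Filled points passed an adjusted p of 0.05: H1f0 and H1f10 in H1, H2ax in H2A, H2bc21 and H2bu2 in H2B, and none in H3 or H4.

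Both called linker genes, H1f0 and H1f10, had larger log2 fold changes than any other member. H1f0 encodes H1.0, the linker variant known to accumulate in cells that have stopped dividing (chr15:79028450-79030504, plus strand). It was at 94.1, 135 and 129 CPM in the controls and at 34.6, 33.5 and 20.1 CPM in the cKO-labelled libraries. The highest cKO-labelled value was below the lowest control value by a wide gap. The means were 119 ± 21.9 and 29.4 ± 8.09 CPM (SD, n = 3 each), and the log2 fold change was -2.02 with a standard error of 0.22 (edgeR adjusted p = 0.00349). H1f0 was the only member called under every alternative fit and with each library left out, where its log2 fold change lay between -2.17 and -1.81.

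H1f10 encodes H1.10 (H1x), the other replication-independent linker histone tested (chr6:87980421-87981637, minus strand). It had 37, 85 and 130 counts in the controls and 10, 4 and 4 in the cKO-labelled libraries. In CPM these were 1.92, 4.37 and 5.05 against 0.456, 0.208 and 0.185. The groups did not overlap, at a level near the floor of the assay in the cKO-labelled libraries. The log2 fold change was -3.71 with a standard error of 0.67 (edgeR adjusted p = 0.00993), and without cKO 3 the adjusted p was 0.0627.

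The 5 replication-dependent linker genes of somatic cells, H1f1 to H1f5, were not called by edgeR, while DESeq2 called H1f4 lower (adjusted p = 0.0362) and limma-voom called H1f2 lower (adjusted p = 0.0457). H1f2, which encodes H1.2, was at 59.55, 100.2 and 84.7 CPM in the controls and at 68.5, 26.3 and 17.4 CPM in the cKO-labelled libraries. cKO 1 lay within the control range and the other two lay below it. The log2 fold change of H1f2 was -1.12 with a standard error of 0.41 (edgeR adjusted p = 0.108), and without cKO 1 it was -1.90 (adjusted p = 0.0225). H1f4, which encodes H1.4, was at 14.7, 25.7 and 29.3 CPM against 16.2, 12.9 and 9.56 CPM. Its groups overlapped through control 1, and the log2 fold change was -0.85 with a standard error of 0.29 (edgeR adjusted p = 0.0835). H1f3 was at 18.2, 16.04 and 19.6 CPM against 14.2, 12.2 and 10.8 CPM, which do not overlap, with a log2 fold change of -0.53 (adjusted p = 0.116). H1f5 was at 44.2, 54.1 and 69.0 CPM against 45.2, 49.4 and 55.4 CPM, a log2 fold change of -0.16 (adjusted p = 0.614). H1f1 alone had a positive value, 12.1, 11.2 and 11.8 CPM against 13.9, 15.8 and 16.6 CPM, a log2 fold change of 0.40 (adjusted p = 0.221).

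Per unit of transcript length, on the authors' FPKM scale, the 11 linker genes summed to 174, 234 and 244 in the controls and to 153, 132 and 124 in the cKO-labelled libraries. H1f0 made up 26.5% ± 1.23 of that sum in the controls and 10.5% ± 2.41 in the cKO-labelled libraries (SD, n = 3 each). H1f5 made up 34.2% ± 3.32 and 50.4% ± 9.93, and H1f1 7.41% ± 1.76 and 15.6% ± 2.90. The share of H1f2 was 23.7% ± 2.96 in controls, and 28.9%, 13.0% and 9.0% in cKO 1, 2 and 3. By counts, without division by length, H1f0 held 36.9% to 38.9% of the linker sum in controls and 15.4% to 22.2% in cKO-labelled libraries. H1f5 held 15.6% to 19.8% and 23.4% to 42.6% by counts, so the order of these genes in controls depends on the scale. Shares on either scale add to a fixed total and were not tested.

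**Figure D2:**
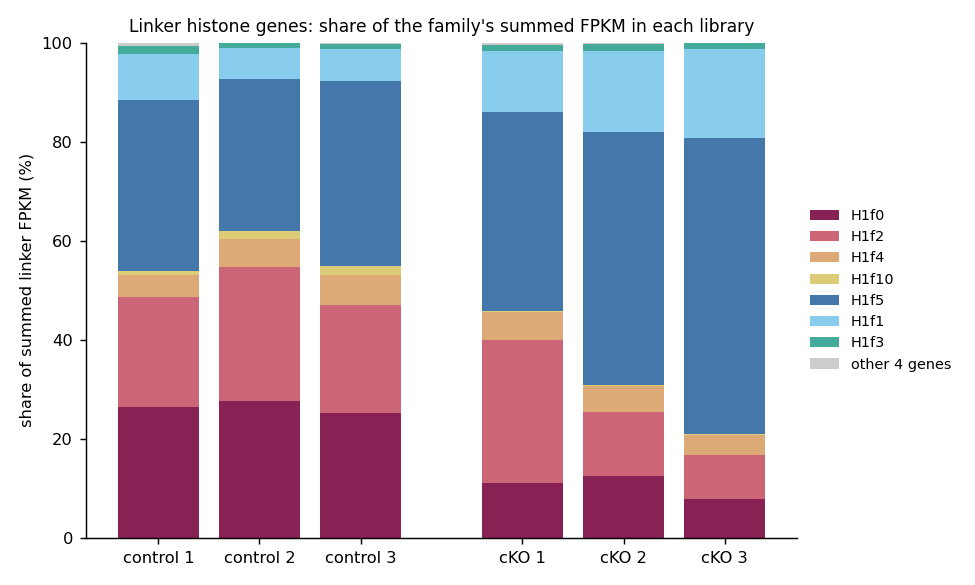
Share of the summed FPKM of the 11 linker genes (y axis, percent) in each of the 6 libraries (x axis), stacked by gene. The H1f0 segment lies between 25.2% and 27.7% in controls and between 7.84% and 12.5% in cKO-labelled libraries, and the H1f5 segment between 30.7% and 37.4% and between 40.1% and 59.9%.

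Among H2A genes, H2ax was lower. H2ax encodes H2A.X, whose C-terminal serine is phosphorylated around DNA double-strand breaks (chr9:44334694-44336077, plus strand). It was at 335, 507 and 573 CPM in the controls and at 223, 235 and 211 CPM in the cKO-labelled libraries. The cKO-labelled values lay close together and below every control. The log2 fold change was -1.08 with a standard error of 0.18 (edgeR adjusted p = 0.00811), and without cKO 3 it was -1.04 with an adjusted p of 0.0554.

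The other H2A variants did not pass the test. H2az1 and H2az2 encode the H2A.Z proteins found at promoters. H2az1 was at 1460, 2104 and 2441 CPM against 2101, 2150 and 2400 CPM, a log2 fold change of 0.15 with a standard error of 0.17 (edgeR adjusted p = 0.617). H2az2 was at 373, 474 and 509 CPM against 366, 436 and 452 CPM, a log2 fold change of -0.11 (adjusted p = 0.652), and H2aj, which encodes H2A.J, had a log2 fold change of 0.03 (adjusted p = 0.928). For all 3 the groups overlapped. The sign of H2az1 turned without control 1 and that of H2aj without control 1 or cKO 2.

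Of the 14 replication-dependent H2A genes tested, 8 had positive and 6 negative log2 fold changes, between -0.55 and 0.63, and none was called by edgeR on all 6 libraries. H2aw, at -0.37 with an adjusted p of 0.192, was at -0.60 with an adjusted p of 0.0494 without cKO 1. H2ac18 was at 43.2, 49.0 and 58.6 CPM against 40.0, 33.8 and 29.4 CPM, with groups that did not overlap and a log2 fold change of -0.55 (adjusted p = 0.0688, DESeq2 adjusted p = 0.0364). All of its 50-base words were also present in other genes. Its near-identical copy H2ac19 had 68, 22 and 0 counts against 0, 0 and 84, so how reads were divided between the copies is uncertain. The most abundant replication-dependent member, H2ac24, was at 456, 966 and 1221 CPM against 1077, 800 and 882 CPM, a log2 fold change of 0.06 (adjusted p = 0.916), and shared 93.1% of its words with other genes. Over the 68 tested members 30 shared more than 50% of their words, and the 5 called members shared between 0% and 22.1%.

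Both other called members encode H2B. H2bc21 lies in the cluster on chromosome 3 (chr3:96221119-96223738, plus strand) and its annotated transcript extends 2192 bases past the stop codon. It was at 32.2, 46.4 and 43.3 CPM in the controls and at 8.35, 18.3 and 11.3 CPM in the cKO-labelled libraries. Every cKO-labelled value lay well below every control. The log2 fold change was -1.69 with a standard error of 0.28 (edgeR adjusted p = 0.00811), and without cKO 3 it was -1.61 with an adjusted p of 0.0552. H2bu2, in the small cluster on chromosome 11 (chr11:58948920-58949533, plus strand), was at 15.3, 15.9 and 19.96 CPM against 8.13, 8.90 and 5.68 CPM. The groups did not overlap. The log2 fold change was -1.17 with a standard error of 0.25 (edgeR adjusted p = 0.0173). Its call was lost without control 3, cKO 1 or cKO 3, where the adjusted p was 0.0595, 0.0511 and 0.0781. Without cKO 3 the count of members called was 1, and without control 1 it was 8, with H1f4, H2ac18 and H3f3a added.

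H2bc4 was like H1f2 in its levels over the libraries. It was at 46.7, 79.8 and 66.1 CPM in the controls and at 57.5, 18.1 and 13.5 CPM in the cKO-labelled libraries, with cKO 1 inside the control range. The log2 fold change was -1.11 with a standard error of 0.45 (edgeR adjusted p = 0.141), and without cKO 1 it was -2.02 (adjusted p = 0.0192). H2bc3 was at 4.88, 5.45 and 6.06 CPM against 8.22, 7.602 and 9.09 CPM, with groups that did not overlap and a log2 fold change of 0.60 (adjusted p = 0.171). Of the 17 H2B genes, 8 had positive and 9 had negative log2 fold changes.

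**Figure D3:**
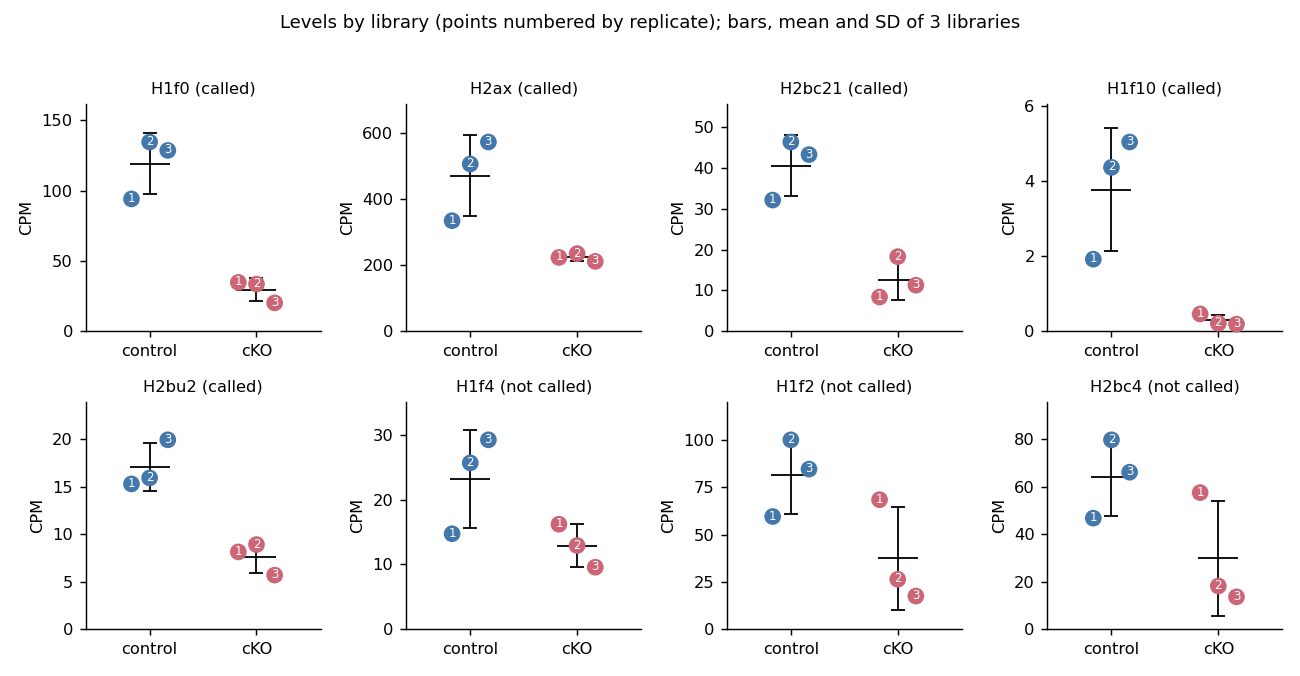
Level of 8 histone genes (y axis, CPM, from 0) in each library, with points numbered by replicate, and the mean and SD of 3 libraries as bars. The 5 called genes (H1f0, H2ax, H2bc21, H1f10 and H2bu2) do not overlap between groups, whereas cKO 1 lies within the control range for H1f4, H1f2 and H2bc4.

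No H3 or H4 gene was called by edgeR, DESeq2 or limma-voom. At an unadjusted p below 0.05, H3c3 was higher and H3f3a and H3f3b were lower. H3f3a and H3f3b encode the same protein, H3.3, which is deposited outside replication. H3f3b, with the highest FPKM of all members in the controls, was at 7813, 6950 and 9788 CPM against 7549, 5625 and 5372 CPM, a log2 fold change of -0.40 with a standard error of 0.16 (edgeR adjusted p = 0.127). H3f3a was at 1127, 1378 and 1387 CPM against 999, 1122 and 1095 CPM, with groups that only just separate and a log2 fold change of -0.28 with a standard error of 0.12 (edgeR adjusted p = 0.154, and 0.0183 without control 1). Of the 12 replication-dependent H3 genes, 8 had positive log2 fold changes. H3c3 had the largest value, at 3.22, 3.50 and 6.33 CPM against 6.665, 8.38 and 10.5 CPM, with groups that did not overlap and a log2 fold change of 0.96 with a standard error of 0.35 (edgeR adjusted p = 0.105). Of the 12 H4 genes tested, 7 had positive values, and H4c6 had the largest. H4c6 was at 0.208, 0.463 and 0.932 CPM against 0.959, 1.41 and 1.52 CPM, a log2 fold change of 1.25 (adjusted p = 0.304).

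On the authors' FPKM scale, which divides by length, the order of the variant genes in the controls was H3f3b, H2az1, H3f3a, H2az2, H2ax, H1f0, H2aj and H1f10. The median FPKM of the 3 controls was 3875, 1949, 1320, 585, 362, 61.4, 52.1 and 3.55 in that order. H2az1 ranged from 1382 to 2247 FPKM over the controls and H3f3a from 1110 to 1329 FPKM, so these neighbours did not overlap, whereas H1f0 at 46.3 to 64.7 and H2aj at 49.9 to 64.7 FPKM did. In the cKO-labelled libraries the medians were 2795, 2066, 1089, 594, 163, 16.5, 50.1 and 0.17. H2aj at 49.8 to 61.5 FPKM then lay above H1f0 at 9.75 to 17.0 FPKM in all 3 libraries. H2ac24 had a control median of 1979 FPKM, but this level rests on reads that near-identical genes could share.

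Summed over genes, the classes of replication-dependent histones overlapped between groups. The 64 replication-dependent members summed to 1405, 2190 and 2558 CPM in the controls and to 2197, 1771 and 1868 CPM in the cKO-labelled libraries, a log2 ratio of means of -0.08. The log2 ratio was -0.19 without H2ac24. By family the log2 ratio was -0.57 for H1, -0.02 for H2A, -0.39 for H2B, 0.16 for H3 and 0.03 for H4, each with groups that overlapped. The 8 variant genes summed to 11259, 11617 and 14902 CPM against 11329, 9675 and 9615 CPM, a log2 ratio of -0.30 that also overlapped. All histone members together took 1.28%, 1.36% and 1.71% of the counts in the controls and 1.36%, 1.16% and 1.15% in the cKO-labelled libraries. Of the sums computed, that of all 11 linker genes separated the groups, at 246, 346 and 349 CPM against 194, 151 and 130 CPM (log2 ratio -0.99). The mean of that sum was 314 CPM in controls and 158 CPM in the cKO-labelled libraries, and the means of H1f0 were 119 and 29.4 CPM within it. These sums carry no test.

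The called members were then set against how their annotated transcripts end. This grouping was chosen after the values were seen and is given as counts with no test. Some members without the hexamer, named below, have annotated transcripts that end at or near the stop codon. No hexamer past that codon could be found in them. Of the 22 tested members with a poly(A) hexamer in the last 50 bases, 5 were called lower by edgeR, and of the 46 without it 0 were, where 5.89% of all tested genes were called lower. Other fits or library sets did not keep this split. Of the members they added as lower, H1f4, H2ac18 and H2bc4 lack the hexamer, and H1f2, H2aw and H3f3a have it. The medians of the log2 fold changes were -0.17 and 0.05. Within replication-dependent genes 2 of 15 with the hexamer and 0 of 45 without it were called lower, and their medians were -0.16 and 0.06. That class rests on symbols alone, and H2bc21, called within it, had no stem-loop by this search. By stem-loop, the 22 genes whose transcript stops within 100 bases of the hairpin had a median log2 fold change of 0.22, and the 23 whose transcript runs on had a median of -0.04 with 2 called lower. The 12 genes with no stem-loop by this search and a 3′ end within 100 bases of the stop codon had a median of 0.16, and the 11 with a longer end had a median of -0.40 with 3 called lower. Of the 12, H2bc13, H2ac22, H2bc18, H2ac13, H1f5, H2ac15, H3c10, H3c11 and H2bc15 had annotated transcripts that ended at the stop codon. That of H2ac12 ended 2 bases past it. Neither signal could be found past the stop codon in these genes, so whether their mRNAs lack either is not known. Libraries primed on poly(A) tails capture mRNAs without a tail poorly. The labels name an mRNA library kit and the methods a whole-transcriptome amplification kit, and neither states how cDNA was primed. The part of priming in these levels was not tested.

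**Figure D4:**
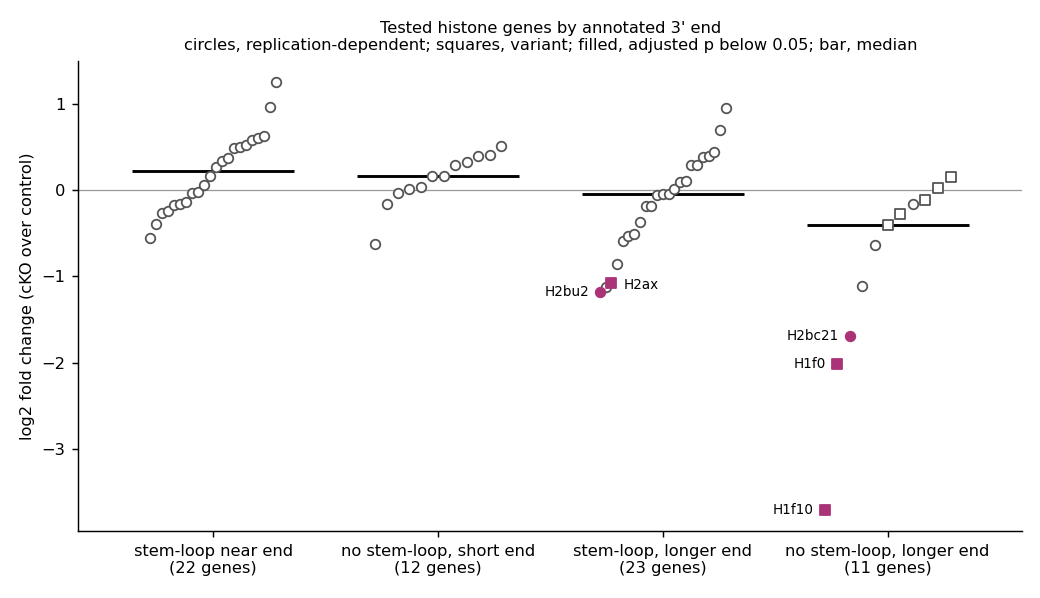
Log2 fold change (y axis, cKO-labelled over control) of the 68 tested histone genes by annotated 3′ end (x axis), with the median of each class as a bar. Filled points passed an edgeR adjusted p of 0.05, and all 5 lie in the classes with longer ends. H2ac18, which DESeq2 called lower, lies in the class that stops near the stem-loop.

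Many core histone genes stand head to head and share the stretch between their starts. Of 11 such pairs with both members tested, 10 of an H2A with an H2B gene and 1 of H2bc9 with H3c7, the widest gap in log2 fold change was that of H2ac20 (-0.27) and H2bc21 (-1.69), whose starts lie 239 bases apart. The log2 ratio of H2bc21 to H2ac20 counts was 2.15, 2.05 and 1.59 in the controls and -0.07, 0.78 and 0.51 in the cKO-labelled libraries. No library of either group reached the range of the other. The difference was -1.53 with an exact two-sided permutation p of 0.1, the smallest that 3 against 3 libraries can give (0.367 after adjustment over the 11 pairs). The pair H2ac6 (-0.04) and H2bc4 (-1.11), 251 bases apart, had log2 ratios of 2.53, 3.12 and 2.197 against 2.59, 0.67 and 0.45, with cKO 1 again among the controls (exact permutation p = 0.3, adjusted 0.413). The groups also separated for H2bc22 over H2ac22, with log2 ratios of -0.02, 0.47 and 0.24 against -0.32, -0.50 and -0.90, and for H2bc11 over H2ac11, with -0.04, 0.02 and -0.14 against 0.23, 0.74 and 0.46 (exact permutation p = 0.1 each, adjusted 0.367). The other 7 pairs overlapped, and over all 9 the differences lay between -0.81 and 0.91. Of their 50-base words, H2ac22 shared 85.8%, H2bc22 44.1%, H2ac11 78.9%, H2bc11 59.4% and H2ac20 55.0% with other genes. How reads were divided between copies is therefore uncertain in these pairs.

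Promoter sequences of 93 members were matched in RefSeq (GRCm38.p6), and the 250 bases before the start were searched on both strands for CCAAT, the TATA box TATAAA, the octamer ATTTGCAT and the E2F site TTTGGCGC or TTTCGCGC. CCAAT was present in 44 of the 54 replication-dependent promoters and 33.8% of all 32851 promoters, TATAAA in 25 of 54 and 12.4%, the octamer in 12 of 54 and 1.6%, and the E2F site in 6 of 54 and 0.7%. All 14 H2B promoters held CCAAT and 6 of them the octamer. The 150 bases before the start are shown 5′ to 3′ for 3 called members and for H2ac20, whose promoter faces H2bc21, with these motifs in capitals, also where read on the other strand. They lie at chr15:79028062-79028211 (plus strand, H1f0), chr6:87981483-87981632 (minus strand, H1f10), chr11:58948761-58948910 (plus strand, H2bu2) and chr3:96220881-96221030 (minus strand, H2ac20).
H1f0: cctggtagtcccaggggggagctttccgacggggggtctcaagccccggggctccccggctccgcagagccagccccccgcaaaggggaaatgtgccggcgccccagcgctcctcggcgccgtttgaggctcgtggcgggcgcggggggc
H1f10: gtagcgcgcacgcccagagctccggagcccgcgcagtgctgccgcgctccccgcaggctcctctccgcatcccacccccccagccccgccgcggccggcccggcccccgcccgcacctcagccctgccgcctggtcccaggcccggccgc
H2bu2: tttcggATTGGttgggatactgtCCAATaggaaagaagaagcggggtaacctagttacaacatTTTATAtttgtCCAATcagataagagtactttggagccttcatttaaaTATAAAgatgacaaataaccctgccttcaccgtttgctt
H2ac20: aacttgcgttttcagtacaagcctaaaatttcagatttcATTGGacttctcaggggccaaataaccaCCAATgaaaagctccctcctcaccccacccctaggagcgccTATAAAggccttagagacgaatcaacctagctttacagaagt
None of the searched motifs fell within the printed stretch of H1f0 or H1f10. These stretches lie before RefSeq starts, which differ from the GENCODE starts of both genes. The H1f10 stretch lies inside its GENCODE transcript (chr6:87980421-87981637), and that of H1f0 ends short of its GENCODE start (chr15:79028450). The bases just before the GENCODE starts of these genes are therefore not shown. H2bu2 and H2ac20 held CCAAT on both strands and TATAAA. A match of letters is a description and not evidence of a bound factor.

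Among genes that transcribe, process and chaperone histones, 12 were higher in the cKO-labelled libraries and 0 were lower. The genes were listed with earlier results of these data known. The list held 51 genes, all tested (53 symbols, of which 2 are alternative names that the table does not use), and 4.47% of all genes tested were called higher. At an unadjusted p below 0.05 the edgeR fit gave 21 higher and 1 lower, and DESeq2 and limma-voom called 17 and 13 of the list higher and 0 lower. Groups did not overlap for 20 of them that were higher (15.7% over all genes) and 5 that were lower (17.3% over all genes), and the median log2 fold change was 0.06 against -0.0017 over all genes. Without cKO 3 the count was 0, while 42 genes of the whole table were called higher, and it lay between 5 and 16 when any other single library was left out. Mcm2, a helicase subunit that also binds H3-H4, stands on the list of replication genes too.

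Transcription of the clusters depends on NPAT and on CASP8AP2 (FLASH). Npat was at 107, 80.9 and 77.9 CPM in the controls and at 131, 127 and 138 CPM in the cKO-labelled libraries, a log2 fold change of 0.58 with a standard error of 0.14 (edgeR adjusted p = 0.0317). Casp8ap2 had a mean of 117 ± 18.95 CPM against 213 ± 17.0 CPM (SD, n = 3 each) and a log2 fold change of 0.86 (adjusted p = 0.00749). The other 3 genes of that group, Hinfp among them, were not called by edgeR. Of the 8 genes for 3′ end processing Slbp, whose protein binds the stem-loop, was the only one called. It was at 417, 592 and 574 CPM against 767, 800 and 905 CPM, a log2 fold change of 0.64 with a standard error of 0.15 (edgeR adjusted p = 0.0234). All cKO-labelled values of Npat and of Slbp lay above all control values. The 4 decay genes were not called by edgeR, while DESeq2 called Eri1 higher.

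The H3-H4 chaperones and importers held 7 of the 12 calls among 19 genes. Chaf1a and Chaf1b encode subunits of CAF-1, which deposits H3-H4 at replication forks. Chaf1a was at 66.5, 90.6 and 103 CPM against 142, 160 and 195 CPM, a log2 fold change of 0.93 (adjusted p = 0.0116), and Chaf1b at 66.3, 94.2 and 115 CPM against 137, 155 and 159 CPM, a log2 fold change of 0.71 (adjusted p = 0.0358). Nasp, which protects soluble H3-H4, was at 88.2, 107 and 125 CPM against 174, 196 and 236 CPM, a log2 fold change of 0.92 (adjusted p = 0.00915). In each of these 3 genes the groups did not overlap. Tonsl, Ipo4, Mcm2 and Dnajc9 had log2 fold changes of 1.06, 0.99, 0.59 and 0.49 with edgeR adjusted p between 0.0104 and 0.0466. Asf1a (0.37, edgeR adjusted p = 0.0850, called higher by DESeq2), Asf1b (-0.01, adjusted p = 0.983) and the H3.3 chaperone Hira (0.44, adjusted p = 0.241) were not called by edgeR.

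On the H2A-H2B side 1 of 11 genes was called, Nap1l1, with a log2 fold change of 0.69 (adjusted p = 0.0212). Npm1, a chaperone of core and linker histones, had a log2 fold change of 0.70 (adjusted p = 0.00915). The centromeric H3 variant Cenpa was at 132, 175 and 208 CPM against 130, 139 and 146 CPM, a log2 fold change of -0.31 (adjusted p = 0.235).

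**Figure D5:**
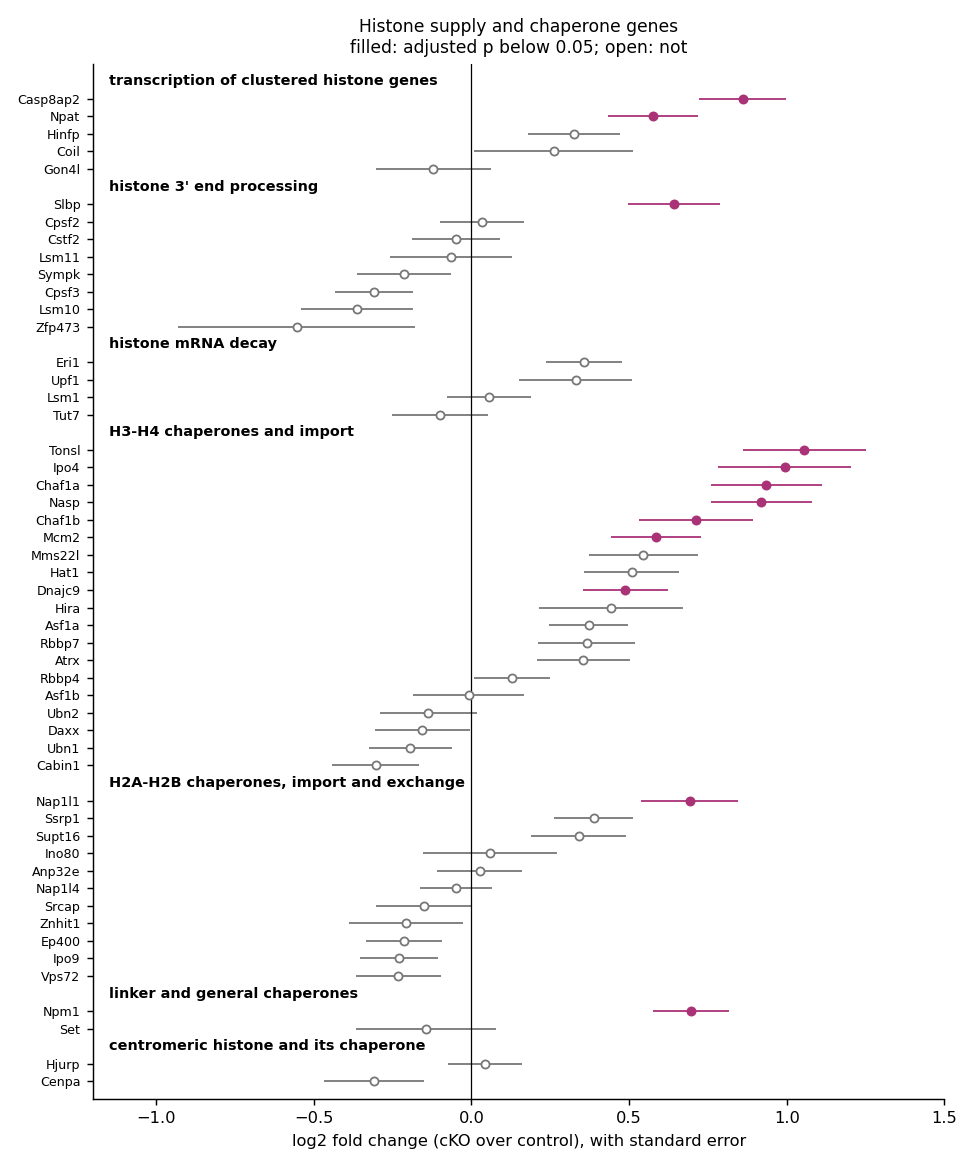
Log2 fold change (x axis, cKO-labelled over control, with standard error) of 51 genes for histone transcription, processing, decay, import and deposition (y axis, grouped by role). Filled points passed an adjusted p of 0.05: all 12 lie above 0, and 7 of them are H3-H4 chaperones and importers.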

How the data were processed

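RNA of sorted DP thymocytes was sequenced in 3 control and 3 cKO libraries. The deposited table gave raw counts and FPKM per gene, library and symbol. Both were made by the authors, whose processing notes name fastp 0.18.0, Bowtie2 2.2.8, HISAT2, StringTie and RSEM with no role. Replicates were not pooled, and for the genome build, annotation and strand setting nothing was given in the sources used here. Depth ran from 18963775 to 26252248 counts, and the common biological coefficient of variation was 0.228. The table's columns of the authors' own comparison (group means, log2 fold changes, p-values and false discovery rates) were not used.

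Members were the genes whose symbol matched the histone pattern. Counts were tested with the edgeR 4.0.16 quasi-likelihood test (TMM factors, filterByExpr at a count of 10 and a total of 15, genotype as the only term). Benjamini-Hochberg adjustment ran over all 11488 tested genes, and a gene was called at an adjusted p below 0.05. Standard errors are the absolute log2 fold change over the square root of the F statistic. The script was tested on simulated data. The deposited FPKM was used for levels between genes only, with no test. Any tested member could be named. In the list of supply and chaperone genes those called were named, with Slbp, Npat, Chaf1a, Chaf1b, Asf1a, Asf1b, Nasp, Hira and Cenpa in any case. Members and lists were chosen with earlier results of these data known.

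Transcript ends came from GENCODE M21 by Ensembl identifier, and 22267 of 22322 genes matched. Words of 50 bases shared with other genes on either strand marked reads that could be divided between copies. Promoters came from RefSeq. Ratios within head-to-head pairs used counts plus 0.5. Alternatives were RLE factors, total counts alone, no filter, a mean of at least 5 CPM, DESeq2 1.42.0, limma-voom (limma 3.58.1), the replicate number as a term, and each library left out.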

Additional observations from a re-analysis of the deposited data

How the results depend on the processing

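The 5 members called lower were 5 of 5 shared under RLE factors, total counts alone and the replicate block, and 0 members were called higher in any alternative. Without any filter and with limma-voom H1f2 was added, DESeq2 added H1f4 and H2ac18, and a mean of at least 5 CPM removed H1f10 from the test. With each library left out in turn the count of members lower lay between 1 (without cKO 3, H1f0 alone) and 8 (without control 1). Genes higher over the whole table lay between 42 and 1000, genes lower between 78 and 1030, listed supply genes higher between 0 and 16, and listed supply genes lower between 0 and 2. DESeq2 called 953 genes higher. With each library left out the log2 fold change of H2az1 lay between -0.0385 (without control 1) and 0.313, and that of H2aj between -0.0691 (without cKO 2; also below 0 without control 1) and 0.128, at adjusted p of 0.783 or more where the sign turned.

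Replicate numbers did not pair the libraries: the deviations of same-numbered libraries correlated at 0.045, 0.038 and -0.030. With the replicate block 5 members, 570 genes higher, 668 genes lower and 15 listed supply genes were called, and no member's call changed. The sums over classes kept their sign when counted over tested members alone. Scaled to total counts, the sum of replication-dependent H2A genes (log2 ratio -0.02) turned to a positive sign, and the other classes kept theirs. That sum took 0.085%, 0.138% and 0.167% of the counts in the controls and 0.153%, 0.116% and 0.121% in the cKO-labelled libraries. Low counts limited H1f10 and the germ-line genes, and shared sequence limited 30 of the 68 tested members.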

Other observations

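Of the 22 tested replication-dependent genes whose annotated transcript stops near the stem-loop, 13 had positive and 9 had negative log2 fold changes, between -0.55 (H2ac18) and 1.25, and none was called by edgeR. Examples with positive values follow. H2bc11 was at 14.9, 20.8 and 30.4 CPM in the controls and 29.3, 31.1 and 33.4 CPM in the cKO-labelled libraries, H2ac4 at 6.59, 11.3 and 14.1 against 14.1, 17.6 and 16.5 CPM, and H2bc12 at 9.75, 10.3 and 17.6 against 20.9, 17.9 and 15.4 CPM. Their log2 fold changes were 0.50, 0.59 and 0.52 with edgeR adjusted p between 0.201 and 0.227. H4c17 was at 11.9, 11.1 and 7.61 CPM against 14.3, 14.6 and 13.8 CPM, with groups that did not overlap (edgeR adjusted p = 0.208). Of their 50-base words, H2bc11, H2ac4, H2bc12 and H4c17 shared 59.4%, 58.0%, 74.2% and 89.8% with other genes. With H2ac23, which was not tested, the class that stops near the stem-loop held 23 members. Its 22 members other than H2ac24 summed to 184, 220 and 296 CPM in controls and 246, 248 and 264 CPM in cKO-labelled libraries. These sums overlap between groups.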
